A study of Homo sapiens with 18 samples.

Results

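The genes described here are 45 ribosome biogenesis and nucleolar factors, taken by symbol from a named list out of the 59251 genes of the count tables. By role they fall into 4 genes of RNA polymerase I, 7 of the small nucleolar ribonucleoproteins (snoRNPs), 16 of small-subunit assembly, 13 of large-subunit assembly and 5 other nucleolar or transport factors. The list was not chosen by a measured threshold, but earlier results of these data were known when it was made. All 45 members passed the filter on low counts, as did 21615 genes in all. RNA was sequenced in 18 libraries of HAP1, a near-haploid adherent human line derived from a chronic myeloid leukaemia line, in 6 groups of 3.

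In 12 libraries the genotype was delSARS2+SARS2-1xFLAG (called the deleted line here), in which SARS2 was deleted and a FLAG-tagged SARS2 transgene was added. SARS2 is the mitochondrial seryl-tRNA synthetase. This line was measured with continuous 15 ng/mL doxycycline, the antibiotic used to keep such transgenes switched on, and in groups labelled 3, 6 and 9 days without it. The other 6 libraries were the unmodified parental line without and with doxycycline. How long the parental cells had been without the drug, which promoter drives the transgene and whether the deleted line is a single clone are not stated in the labels. The question the series names is how expression differs between cells that express SARS2 and cells depleted of it.

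Ribosome assembly begins in the nucleolus, where RNA polymerase I, brought to the ribosomal DNA by RRN3, transcribes the long precursor of the ribosomal RNAs. SnoRNPs guide the methylation and pseudouridylation of that precursor, processome proteins fold and cleave it around the small subunit, and a separate set of factors matures the large subunit. Growing cells spend much of their transcription and translation on this pathway, and many of its genes are textbook targets of the transcription factor MYC.

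Library totals ran from 66850705 to 111123481 counts, and each member held 343 to 332071 counts per library. Counting error was not compared with the spread between replicates gene by gene. In some groups that spread was small, as for PPAN with doxycycline in the deleted line (SD 0.162 around 5.21 CPM). SARS2 itself stood at 23.5, 25.2 and 23.9 CPM (counts per 1e6 counted) in the 3 deleted-line libraries with doxycycline, 30.5, 31.9 and 32.4 CPM at day 3, 23.2, 25.8 and 25.0 CPM at day 6 and 43.3, 34.0 and 48.1 CPM at day 9. In parental libraries it stood at 36.6, 40.4 and 42.6 CPM without and 43.5, 46.2 and 43.2 CPM with doxycycline. Counts of SARS2 were thus higher in the libraries labelled day 3 (log2 fold change 0.38 ± 0.10 SE with adjusted p = 0.014) and day 9 (log2 fold change 0.79 ± 0.10 SE with adjusted p = 2.7e-06), and day 6 did not pass (log2 fold change 0.03 ± 0.10 SE with adjusted p = 0.86). These libraries are labelled as lacking doxycycline, and the series names cells depleted of SARS2, yet the counts were not lower. Every day named below is therefore the day a library is labelled with. Reads of the transgene and of the deleted locus cannot be told apart in these counts. Of 10 haematopoietic markers, 9 stayed under 1 CPM on average in every group and MPO, CD48, GATA1 and HBG1 were at 0 in all 18 libraries.

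The members moved together, and the direction turned over with the labelled day. At day 3, 16 of 45 rose and 0 fell, while 6.50% of all tested genes rose and 6.87% fell (edgeR quasi-likelihood test, Benjamini-Hochberg adjusted p under 0.05, used throughout). The day 3 count dropped to 6 and 8 without doxycycline replicate 1 or 2, and to 9 and 7 without day 3 replicate 2 or 3, with medians of 0.22 to 0.27, and was 36 when the fit held the groups compared alone. At day 6, 20 fell and 1 rose (28.1% of all genes passed, 3036 of them lower and 3034 higher). At day 9, 37 rose and 1 fell, where 46.4% of all genes passed, 22.6% higher and 23.8% lower. Without doxycycline the parental line had 41 members lower and 0 higher, against 18.4% of all genes that were lower. At day 3 the median log2 fold change of the 45 members was 0.28, at day 6 −0.28 and at day 9 0.49, and the parental median was −0.55. The median over all tested genes lay between −0.01 and 0.03 in these 4 comparisons. In bulk RNA a lower level per cell and a smaller share of cells with the transcript cannot be told apart.

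**Figure D1:**
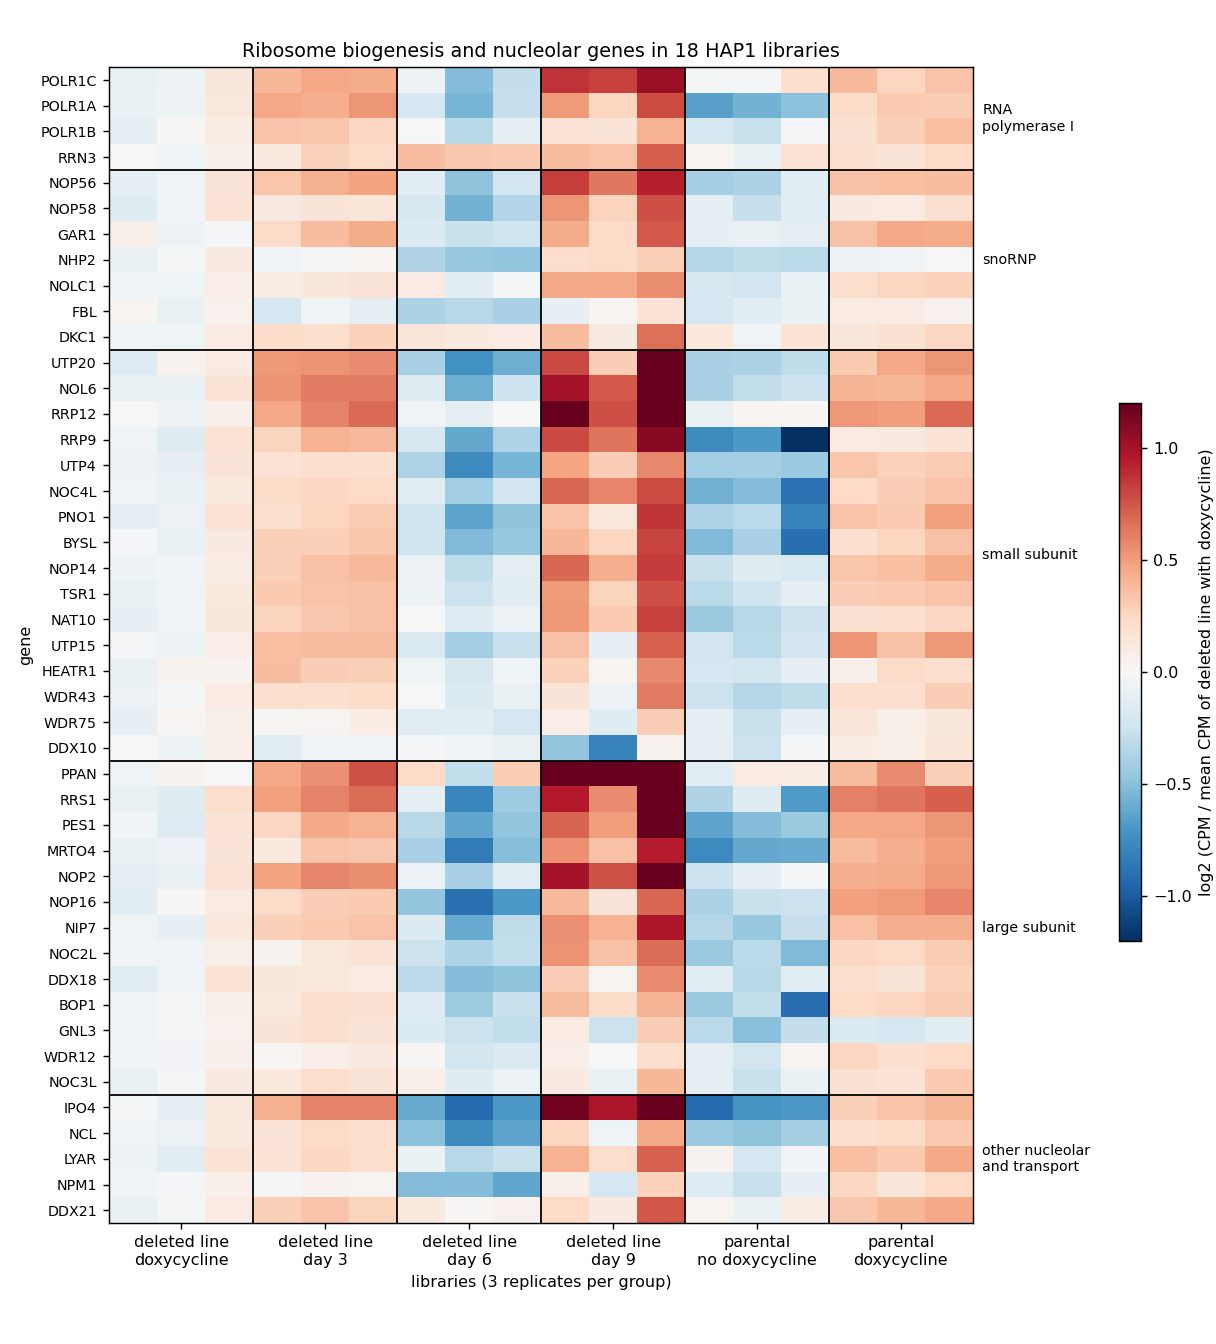
Each row is 1 of the 45 genes and each column 1 library, coloured by the log2 ratio of its CPM to the mean CPM of the deleted line with doxycycline, red for higher and blue for lower. Day 3 and day 9 columns are mostly red, and day 6 and parental columns without doxycycline mostly blue.

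The libraries of a group did not move by the same amount. Relative to the mean of the deleted line with doxycycline, the median member of the day 9 libraries lay 0.45, 0.26 and 0.74 higher on the log2 scale, and 43, 37 and 45 of the 45 members were above that mean. The day 6 medians were −0.15, −0.41 and −0.27, with 8, 3 and 4 members above it. Among the doxycycline libraries themselves the medians were −0.06, −0.05 and 0.10, and in the last of them 44 of 45 members were above the group's own mean. Without that library the day 6 count was 10 fallen and 1 risen, the same as without the second day 6 library. Day 9 was less dependent: 31 members rose and 1 fell without day 9 replicate 3, with a median of 0.35.

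Promoters of 39 members were found by symbol in a RefSeq table (GRCh38.p14) of 250 bases before to 50 after each start. The E-box CACGTG, a palindrome that reads the same on both strands and is the classical binding sequence of MYC with its partner MAX, was in 15 of the 39 promoters at the first listed start (38.5%), against 9.53% of 14347 tested genes and 7.43% of 27305 genes in the table. With every listed start of a gene counted it was in 19 of 39 (48.7%), against 11.6% of tested genes. The ETS-type motif CCGGAAG, searched on both strands, was in 14 of 39 (35.9%), against 16.6% of tested genes, and the YY1-type motif ATGGCGG, also on both strands, in 5 of 39 (12.8%), against 8.87%. None of the 3 motifs contains another. Median GC content was 62.3% in members and 65.0% in tested genes. These are letter matches and do not show that a factor binds there.

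**Figure D2:**
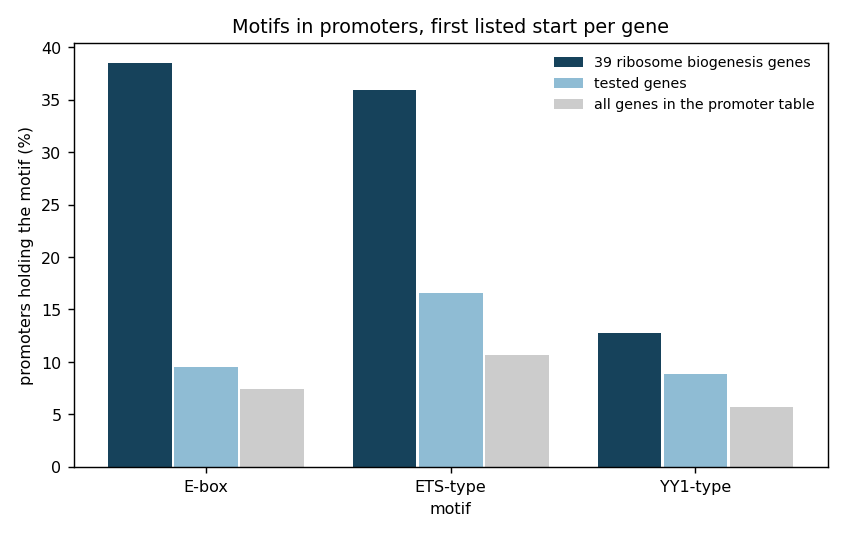
Bars give the share (%) of promoters that hold each motif, by motif, for 39 members, 14347 tested genes and 27305 genes in the promoter table. The E-box bar of the members stands at 38.5% beside 9.53% and 7.43%.

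The E-boxes lay close to the start: 5 of 15 began upstream and 10 after it, between base −29 and base 36 counted from the start. By role, 9 of 15 small-subunit promoters held one, 4 of 10 large-subunit promoters, 1 of 5 snoRNP promoters, 1 of 5 of the other factors and 0 of 4 for RNA polymerase I. The windows below are those of the 7 E-box members with the largest difference between day 9 and day 6, and of NOC3L, the E-box member with the smallest. Capitals mark the E-box, each line reads 5′ to 3′ on the gene's strand, and the window of NOP2 stops where the table ends.
IPO4, chr14:24188828-24188857, minus: tgtcagaacctcCACGTGctgtccctcccc
UTP20, chr12:101280083-101280112, plus: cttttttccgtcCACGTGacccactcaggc
NOL6, chr9:33473894-33473923, minus: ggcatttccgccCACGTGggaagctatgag
PES1, chr22:30591880-30591909, minus: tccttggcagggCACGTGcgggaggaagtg
RRP9, chr3:51941892-51941921, minus: gggttcagctgcCACGTGagttctgcggcc
MRTO4, chr1:19251807-19251836, plus: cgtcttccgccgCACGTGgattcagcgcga
NOP2, chr12:6568242-6568268, minus: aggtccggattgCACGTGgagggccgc
NOC3L, chr10:94362903-94362932, minus: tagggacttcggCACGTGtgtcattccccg

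IPO4 and PPAN are shown in full, from 250 bases before to 20 after the start, because they changed most at day 9 among the factors outside the subunit classes and among all 45 members, and only the promoter of IPO4 of this pair holds an E-box.
IPO4, chr14:24188797-24189066, minus: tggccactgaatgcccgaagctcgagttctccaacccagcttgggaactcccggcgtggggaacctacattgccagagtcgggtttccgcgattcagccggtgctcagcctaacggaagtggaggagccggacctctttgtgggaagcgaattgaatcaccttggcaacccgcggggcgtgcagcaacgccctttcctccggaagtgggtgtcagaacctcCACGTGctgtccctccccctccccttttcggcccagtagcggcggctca
PPAN, chr19:10105973-10106242, plus: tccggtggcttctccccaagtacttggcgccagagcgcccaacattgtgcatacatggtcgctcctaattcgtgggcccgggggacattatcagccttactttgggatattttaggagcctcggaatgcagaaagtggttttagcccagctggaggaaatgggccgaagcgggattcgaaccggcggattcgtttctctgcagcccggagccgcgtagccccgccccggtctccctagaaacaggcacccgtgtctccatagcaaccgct

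Members with and without an E-box moved in the same directions. At day 9, 12 of 15 with an E-box rose (median log2 fold change 0.63) and 19 of 24 without one rose while 1 fell (median 0.41). At day 6, 9 of 15 with an E-box fell (median −0.38), and of 24 without one 9 fell and 1 rose (median −0.23). In the parental line without doxycycline 15 of 15 and 20 of 24 fell, with medians of −0.73 and −0.42. The difference between the groups of promoters was not tested.

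RNA polymerase I genes rose at day 3 (3 of 4) and day 9 (4 of 4), and split at day 6, when POLR1A fell and RRN3 rose. POLR1A, the largest subunit of the enzyme, stood at 105.8, 107.2 and 122.2 CPM with doxycycline, 154.1, 151.1 and 160.9 CPM at day 3, 96.6, 75.7 and 92.1 CPM at day 6 and 159.2, 133.2 and 192.8 CPM at day 9. Day 3 and day 9 libraries were all above the doxycycline libraries and day 6 libraries all below them. The gene rose at day 3 (log2 fold change 0.48 ± 0.11 SE with adjusted p = 0.0067) and day 9 (log2 fold change 0.53 ± 0.11 SE with adjusted p = 0.00038) and fell at day 6 (log2 fold change −0.34 ± 0.11 SE with adjusted p = 0.021); the day 6 fall no longer passed without day 6 replicate 2 or doxycycline replicate 3. Parental libraries held 71.0, 75.2 and 79.4 CPM without and 130.0, 138.7 and 138.3 CPM with doxycycline (log2 fold change −0.85 ± 0.11 SE with adjusted p = 7.3e-06).

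POLR1C, a subunit shared with RNA polymerase III, had 20.5, 21.0 and 24.1 CPM with doxycycline, 28.8, 30.2 and 29.8 CPM at day 3, 20.9, 15.2 and 17.9 CPM at day 6 and 39.9, 38.5 and 44.9 CPM at day 9. The day 9 libraries lay above all others of the line, a rise of 1.88-fold (log2 fold change 0.91 ± 0.10 SE with adjusted p = 9.9e-07). Exons of POLR1C overlap those of XPO5 on the opposite strand by 435 bases of 11933, and no label names the strand setting of the counting. POLR1B, the second largest subunit, rose at day 3 (log2 fold change 0.31 ± 0.09 SE with adjusted p = 0.03) and at day 9 (log2 fold change 0.25 ± 0.09 SE with adjusted p = 0.028). With 1 library left out, its day 3 call was lost in 5 of 6 fits (adjusted p 0.062 to 0.14) and its day 9 call in 3 (0.053 to 0.15). Its day 6 value did not pass (log2 fold change −0.14).

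RRN3, the initiation factor that ties RNA polymerase I to growth signals, was the 1 member that rose at day 6. It stood at 75.0, 72.3 and 71.9 CPM at day 6, against 57.6, 56.0 and 60.3 CPM with doxycycline, with no overlap (log2 fold change 0.33 ± 0.09 SE with adjusted p = 0.007). With trends over gene span and length removed the value was 0.26 and did not pass (adjusted p = 0.055). At day 9 it stood at 74.8, 73.4 and 95.3 CPM, against the same doxycycline libraries (log2 fold change 0.49 ± 0.09 SE with adjusted p = 0.00014), and day 9 did not differ from day 6 by the test (log2 fold change 0.15 ± 0.09 SE with adjusted p = 0.14). Near-identical pseudogene copies of RRN3 could take some of its reads.

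Of the 7 snoRNP genes, 2 rose at day 3, 4 fell at day 6 and 6 rose at day 9. NOP56 and NOP58 are the paired core proteins of the box C/D particles that guide methylation. NOP56 had 195.6, 203.8 and 236.3 CPM with doxycycline, 267.4, 285.2 and 295.9 CPM at day 3, 194.0, 152.1 and 181.8 CPM at day 6 and 377.1, 328.3 and 404.0 CPM at day 9. All day 9 libraries exceeded all others of the 18 (log2 fold change 0.80 ± 0.10 SE with adjusted p = 2e-06, 1.75-fold). In the parental line it stood at 159.3, 162.6 and 192.9 CPM without and 270.4, 271.5 and 274.7 CPM with doxycycline (log2 fold change −0.67 ± 0.10 SE with adjusted p = 3.1e-05).

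NOP58 had 389.3, 323.7 and 461.6 CPM at day 9, against 243.5, 263.9 and 301.6 CPM with doxycycline (log2 fold change 0.54 ± 0.11 SE with adjusted p = 0.00041), and 236.6, 181.9 and 211.0 CPM at day 6 (log2 fold change −0.36 ± 0.11 SE with adjusted p = 0.016). Its day 6 fall, like that of NOP56 (log2 fold change −0.27 ± 0.10 SE with adjusted p = 0.044), no longer passed without day 6 replicate 2 or doxycycline replicate 3. The NOP56 call was also lost without day 6 replicate 3 (adjusted p = 0.062). It was lost too with library size alone (0.11) and with span and length trends removed (0.087). FBL, the methyltransferase of the same particles, fell at day 6 (log2 fold change −0.37 ± 0.07 SE with adjusted p = 0.00044) and did not pass at day 9 (log2 fold change 0.04, adjusted p = 0.68).

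Among the box H/ACA proteins, which form the pseudouridylating particles, NHP2 fell at day 6 to 137.0, 127.9 and 126.3 CPM, against 164.5, 172.5 and 189.4 CPM with doxycycline (log2 fold change −0.43 ± 0.06 SE with adjusted p = 2.7e-05). At day 9 it was higher, at 203.0, 205.6 and 213.4 CPM against the same doxycycline libraries (log2 fold change 0.24 ± 0.06 SE with adjusted p = 0.0016). Exons of NHP2 overlap those of RMND5B on the opposite strand by 376 bases of 908. GAR1 rose at day 3 and day 9 (log2 fold changes 0.35 and 0.49), and DKC1, the pseudouridine synthase, rose at day 9 (0.40) and stood at 0.12 at day 6, which did not pass. The day 3 call of GAR1 was lost in 3 of 6 fits with 1 library left out. NOLC1, a chaperone of snoRNPs, rose at day 9 (log2 fold change 0.49 ± 0.06 SE with adjusted p = 4e-06) and was at −0.02 at day 6, which did not pass.

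Small-subunit factors gave 7 of 16 risen at day 3, 6 fallen at day 6, and 13 risen and 1 fallen at day 9. Between day 9 and day 6, 15 rose and 1 fell. The class median log2 fold change was 0.32 at day 3, −0.21 at day 6 and 0.52 at day 9. RRP12, an export and maturation factor of pre-40S particles, rose most. It had 37.6, 35.9 and 39.0 CPM with doxycycline, 51.6, 56.6 and 60.1 CPM at day 3, 36.1, 34.7 and 37.3 CPM at day 6 and 89.1, 63.9 and 114.1 CPM at day 9. The day 9 libraries differed widely from one another, yet each was above every other deleted-line library (log2 fold change 1.25 ± 0.13 SE with adjusted p = 4.7e-07), and day 6 overlapped the doxycycline libraries.

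NOL6, a processome scaffold protein, stood at 104.5, 87.5 and 129.3 CPM at day 9, against 49.2, 49.5 and 58.6 CPM with doxycycline (log2 fold change 1.03 ± 0.12 SE with adjusted p = 1.1e-06), and at 47.4, 34.9 and 44.2 CPM at day 6 (log2 fold change −0.31 ± 0.12 SE with adjusted p = 0.052, not passing). RRP9, the U3 snoRNP protein, had 131.9, 118.5 and 161.9 CPM at day 9, against 73.7, 68.9 and 85.8 CPM (log2 fold change 0.85 ± 0.14 SE with adjusted p = 4.5e-05). In the parental line without doxycycline RRP9 had 44.7, 47.2 and 31.0 CPM, against 81.5, 82.1 and 85.5 CPM with it (log2 fold change −1.02 ± 0.14 SE with adjusted p = 1.5e-05), and the third of the libraries without the drug was the lowest of all 18.

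UTP20, a large processome scaffold, fell furthest of the class at day 6. It had 50.1, 57.2 and 59.8 CPM with doxycycline, 80.0, 81.1 and 82.4 CPM at day 3, 42.6, 33.6 and 37.1 CPM at day 6 and 96.4, 68.3 and 134.5 CPM at day 9. The day 6 fall (log2 fold change −0.56 ± 0.15 SE with adjusted p = 0.011) no longer passed without day 6 replicate 2 or doxycycline replicate 3, nor did the day 3 rise (log2 fold change 0.54 ± 0.15 SE with adjusted p = 0.025) without any of 5 of the 6 libraries compared. All 3 day 9 libraries were above all doxycycline libraries (log2 fold change 0.84 ± 0.15 SE with adjusted p = 0.00018), but they ran from 68.3 to 134.5 CPM.

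UTP4, BYSL and PNO1, which act from the early processome to the late pre-40S particle, fell at day 6 (log2 fold changes −0.55, −0.40 and −0.44) and rose at day 9 (0.45, 0.51 and 0.47). With 1 library left out, the day 6 call was lost in 3 of 6 fits for BYSL, 4 for PNO1 and 0 for UTP4. The day 9 call of PNO1 was lost in 3. NOC4L, part of a complex with NOP14, fell at day 6 (−0.25, a call lost in 4 of 6 such fits) and rose at day 9 (0.69). NOP14, NAT10, TSR1 and HEATR1 rose at day 3 (0.32 to 0.34) and at day 9 (0.31 to 0.66) and did not pass at day 6. Their day 3 calls were lost in 6 of 6 such fits for HEATR1, 5 for NAT10, 4 for TSR1 and 3 for NOP14. The day 9 call of HEATR1 was lost in 2. NAT10 is the acetyltransferase of the small-subunit ribosomal RNA. UTP15 rose at day 9 alone of these 3 days (0.36, with overlapping libraries, and lost in 4 of 6 such fits). WDR43 and WDR75 passed at none of the 3 days.

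DDX10, a DEAD-box helicase of the small-subunit pathway, went the other way. It had 51.6, 41.2 and 74.1 CPM at day 9, against 71.8, 69.0 and 74.8 CPM with doxycycline and 71.2, 69.6 and 67.6 CPM at day 6. The first pair of day 9 libraries was below all doxycycline libraries and the third was among them (log2 fold change −0.37 ± 0.13 SE with adjusted p = 0.026). The call was lost without either of those low libraries, without doxycycline replicate 1 or 3, and with trends over gene span and length removed (log2 fold change −0.02, adjusted p = 0.90). At 275859 bases DDX10 spans the second longest stretch of the 45 genes, against a median of 18351. The longest is that of POLR1C, at 944312 bases, which rose at day 9. Over all tested genes, Spearman's rho between span and the day 9 log2 fold change was −0.14, given as a description.

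**Figure D3:**
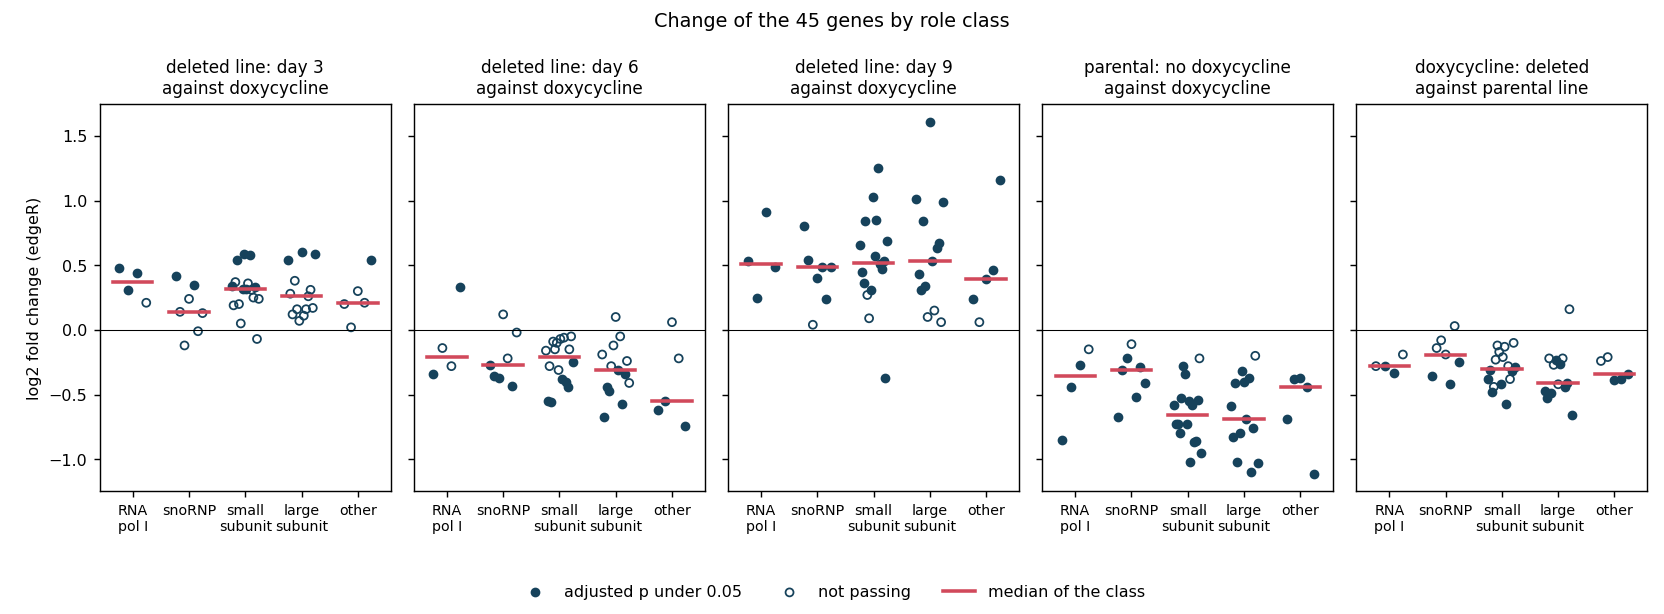
Log2 fold changes (edgeR) of the 45 genes by role class in 5 comparisons; filled points passed an adjusted p under 0.05, open points did not, and red lines are class medians. At day 9 the class medians lie between 0.39 and 0.53, and in the parental line without doxycycline between −0.31 and −0.69.

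Large-subunit factors gave 3 of 13 risen at day 3, 6 fallen at day 6, and 10 risen and 0 fallen at day 9. PPAN, a factor of early large-subunit assembly, showed the widest change of all members at day 9. Its CPM was 5.04, 5.36 and 5.23 with doxycycline, 7.21, 7.62 and 8.82 at day 3, 6.09, 4.24 and 6.44 at day 6 and 14.9, 14 and 18.8 at day 9. The day 9 libraries were 3.05-fold higher than with doxycycline (log2 fold change 1.61 ± 0.15 SE with adjusted p = 1.1e-07), while day 6 overlapped (log2 fold change 0.10 ± 0.15 SE with adjusted p = 0.65). PPAN is among the lowest members, and its exons are shared with the readthrough gene PPAN-P2RY11, so how its reads were divided is uncertain.

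NOP2, the methyltransferase of the large-subunit ribosomal RNA, had 152.8, 129.9 and 177.1 CPM at day 9, against 70.8, 72.3 and 86.0 CPM with doxycycline (log2 fold change 1.01 ± 0.10 SE with adjusted p = 3.4e-07). It also rose at day 3, to 106.4, 114.6 and 112.5 CPM (log2 fold change 0.54 ± 0.10 SE with adjusted p = 0.0024), and overlapped at day 6, with 72.8, 58.5 and 69.6 CPM. RRS1, which brings the 5S ribosomal RNA particle to the pre-60S, had 107.4, 82.3 and 141.0 CPM at day 9, against 52.4, 50.3 and 64.2 CPM (log2 fold change 0.99 ± 0.17 SE with adjusted p = 0.00011). In the parental line it fell to 43.3, 50.4 and 34.8 CPM without doxycycline, against 84.6, 86.6 and 91.6 CPM with it (log2 fold change −1.03 ± 0.17 SE with adjusted p = 0.00012).

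NOP16 fell furthest of the class at day 6, to 48.5, 36.0 and 41.4 CPM, against 61.3, 67.7 and 71.8 CPM with doxycycline (log2 fold change −0.67 ± 0.11 SE with adjusted p = 0.0002). At day 9 it rose to 87.4, 74.7 and 107.9 CPM, against the same libraries (log2 fold change 0.43 ± 0.11 SE with adjusted p = 0.0034). The PES1-BOP1-WDR12 complex joins pre-60S particles and processes their spacer RNA. PES1 fell at day 6 (log2 fold change −0.47) and rose at day 9 (0.84), BOP1 rose at day 9 (0.34), and WDR12 passed at no day (0.07 to 0.10 at days 3 and 9, −0.12 at day 6). Among 6 fits with 1 library left out, the day 6 call of PES1 was lost in 2 and the day 9 call of BOP1 in 1.

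MRTO4, NIP7, DDX18 and NOC2L fell at day 6 (−0.31 to −0.57) and rose at day 9 (0.31 to 0.67). Among 6 fits with 1 library left out, the day 6 call of NIP7 was lost in 4 and the day 9 call of DDX18 in 3. NOC3L, of the NOC complex, and GNL3, the nucleolar GTPase known as nucleostemin, passed at none of the 3 days. They were at 0.15 and 0.06 at day 9.

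Of the other factors, IPO4, an importin that carries ribosomal and histone cargo into the nucleus, had the largest fall of the 45 at day 6 and the largest difference between day 9 and day 6. It stood at 105.7, 100.1 and 116.3 CPM with doxycycline, 144.6, 161.9 and 162.0 CPM at day 3, 70.5, 56.5 and 66.4 CPM at day 6 and 239.6, 209.9 and 268.3 CPM at day 9. None of these 4 groups overlapped another. It fell at day 6 (log2 fold change −0.74 ± 0.10 SE with adjusted p = 2.4e-05), rose at day 9 (log2 fold change 1.16 ± 0.10 SE with adjusted p = 3.3e-08) and was 3.71-fold higher at day 9 than at day 6 (log2 fold change 1.89 ± 0.10 SE with adjusted p = 4e-11). The parental libraries gave 56.3, 65.9 and 66.5 CPM without and 130.5, 136.0 and 141.9 CPM with doxycycline (log2 fold change −1.11 ± 0.10 SE with adjusted p = 2.3e-07). Its exons overlap those of REC8 on the opposite strand by 424 bases of 3518.

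LYAR, a nucleolar zinc-finger protein, rose at day 9 to 127.9, 111.1 and 156.5 CPM, against 91.9, 88.0 and 107.4 CPM with doxycycline (log2 fold change 0.46 ± 0.10 SE with adjusted p = 0.0012). Its day 6 libraries overlapped the doxycycline libraries. The most abundant members per length in the deleted line with doxycycline were the nucleolar scaffold proteins NCL and NPM1, at 610.2 and 584.8 CPM per kilobase of exon, against a median member at 36.1. POLR1C and PPAN were lowest at 1.83 and 2.06. The value of POLR1C rests on 11933 annotated exon bases over a span of 944312. By mean CPM it stood at 21.8 in these libraries, above PPAN at 5.21. NCL and NPM1 fell at day 6 (log2 fold changes −0.62 and −0.55), and at day 9 NCL rose (0.24, adjusted p = 0.048, with overlapping libraries) and NPM1 did not pass (0.06). The day 9 call of NCL was lost in 4 of 6 fits with 1 library left out. DDX21, a nucleolar RNA helicase, rose at day 9, with 467.2 to 728.7 CPM against 410.2 to 465.7 CPM with doxycycline (log2 fold change 0.39 ± 0.11 SE with adjusted p = 0.0063), and passed at neither day 3 (0.30) nor day 6 (0.06).

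**Figure D4:**
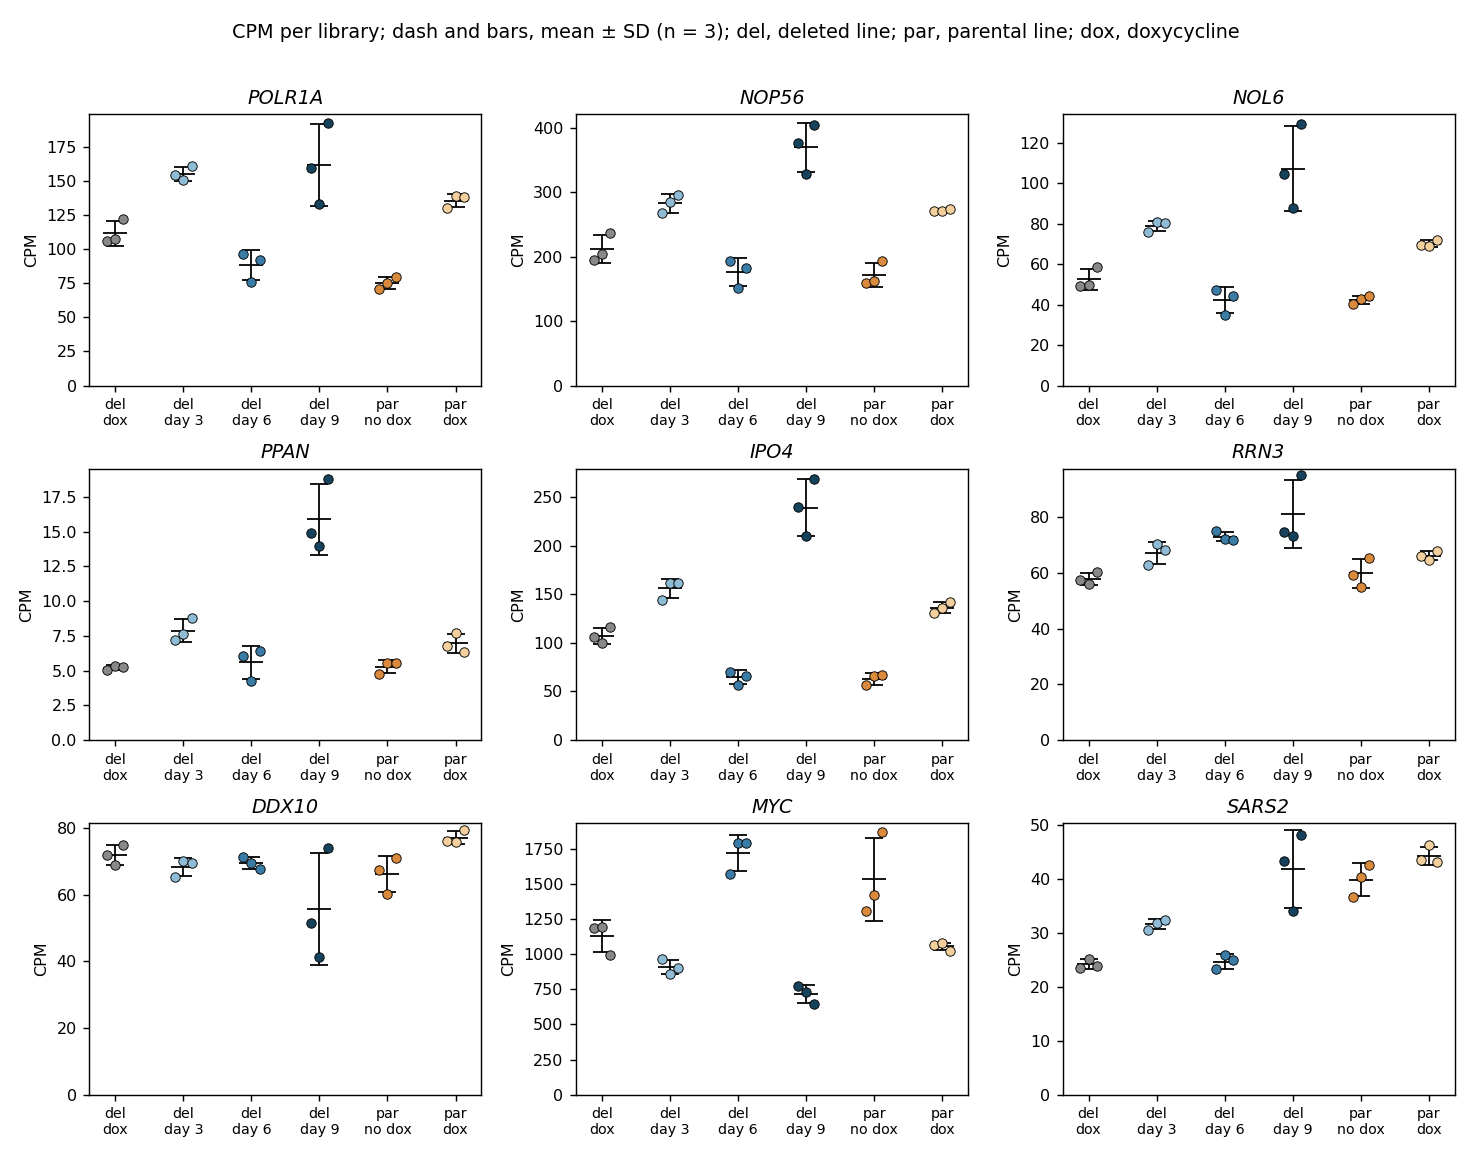
CPM of 7 members, MYC and SARS2 in each of the 18 libraries, with mean ± SD (n = 3 per group); the y axes start at 0. IPO4 runs from 56.3 in a parental library without doxycycline to 268.3 at its highest day 9 library, and MYC is highest at day 6 and in parental cells lacking doxycycline.

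Set against each other, day 9 exceeded day 6 in 42 of 45 members and fell short in 1, against 58.8% of all genes that passed (28.6% higher and 30.2% lower), with a median log2 fold change of 0.82. The class medians were 0.64 for RNA polymerase I, 0.67 for snoRNPs, 0.87 for small-subunit and 1.01 for large-subunit factors, and 0.68 for the others. Of the 45 members, 5 passed at none of days 3, 6 and 9: WDR43, WDR75, WDR12, NOC3L and GNL3. Days 3, 6 and 9 were each compared with the same 3 doxycycline libraries, so their counts are not independent of one another. By group mean, 32 members were highest at day 9, 10 in the parental line with doxycycline and 3 at day 3, while 22 were lowest in the parental line without doxycycline, 18 at day 6, 4 in the deleted line with doxycycline and 1 at day 9.

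The 2 lines differed in direction without doxycycline at day 9. In the parental line the fall reached 15 of 16 small-subunit, 12 of 13 large-subunit, 6 of 7 snoRNP, 3 of 4 RNA polymerase I and 5 of 5 other genes. Its strongest falls were IPO4 (log2 fold change −1.11 ± 0.10 SE with adjusted p = 2.3e-07), MRTO4 (log2 fold change −1.10 ± 0.13 SE with adjusted p = 2.9e-06), RRS1, RRP9 and PES1 (log2 fold changes of the last 3 between −1.02 and −1.03). The change of the deleted line at day 9 exceeded that of the parental line in 43 of 45 members and fell below it in 0, against 51.7% of all genes that passed (24.4% above and 27.3% below), with a median difference of 1.12 on the log2 scale. IPO4 had the largest difference (2.27 ± 0.14 SE with adjusted p = 1e-09), then RRS1 (2.02) and PPAN (2.0). DDX10 and GNL3 did not pass (−0.15 and 0.27).

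The 20 members that fell at day 6 were among the 41 that fell in the parental line. As 41 of all 45 members fell there, most of any 20 members would be among them, so this overlap says little. The test of the difference passed for 9 of 45 members, each with the smaller fall or a rise in the deleted line, and for 0 in the other direction, against 5.49% and 7.14% of all genes. These 9 were NOC4L (0.69), RRP9 (0.64), BOP1 (0.52), POLR1A (0.51), NAT10 (0.48), RRN3 (0.48), NOP14 (0.42), NOLC1 (0.40) and NOC2L (0.38). The calls of NOC4L, RRN3 and NOLC1 held whichever single library was left out. The other 6 were each lost in at least 2 of 12 such fits, among them POLR1A in 7 (adjusted p up to 0.076) and RRP9 in 8 (up to 0.098). This count ranged from 3 (without doxycycline replicate 2 of the deleted line or replicate 3 of the parental line) to 20 (without day 6 replicate 2) as single libraries were left out.

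**Figure D5:**
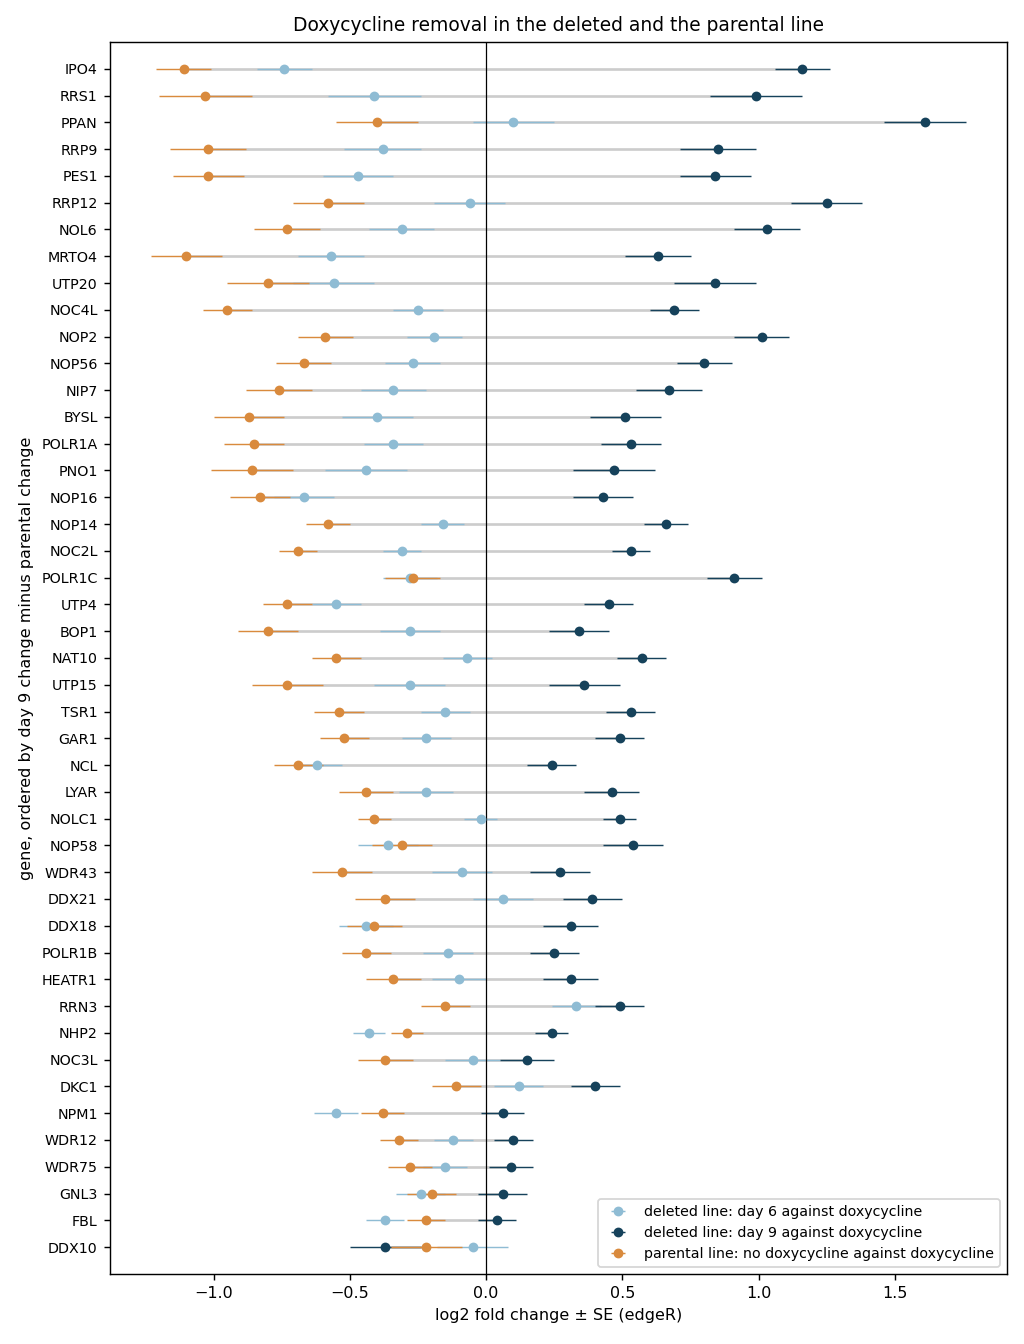
Log2 fold change ± SE (edgeR) of each of the 45 genes without doxycycline: day 6 and day 9 of the deleted line, and the parental line, each against its own line with doxycycline. At day 9 the points of 44 genes lie right of 0, while those of the parental line all lie left of it.

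With doxycycline in both, the deleted line was lower than the parental line in 23 of 45 members and higher in 0, against 9.97% of all genes that were lower and 9.32% that were higher. Large-subunit factors made up 8 of these, small-subunit factors 7, snoRNP genes 3, RNA polymerase I genes 2 and the others 3. Over all members of each class, called or not, the median log2 fold changes were, in the same order, −0.41, −0.30, −0.19, −0.28 and −0.34. RRS1 (log2 fold change −0.66 ± 0.17 SE with adjusted p = 0.011) and RRP12 (log2 fold change −0.57 ± 0.13 SE with adjusted p = 0.0044) were the most lowered. The RRS1 call was lost without deleted-line doxycycline replicate 1 (−0.61, adjusted p = 0.052) or 2 (−0.59, adjusted p = 0.062), while that of RRP12 held without any single library. RRP12 stood at 37.6, 35.9 and 39.0 CPM in the deleted line, against 53.8, 53.2 and 60.0 CPM in the parental line, with no overlap. The count dropped to 6 without deleted-line replicate 1 or 2 and to 9 without parental replicate 3. When the fit held these 2 groups alone, 39 members passed, 38 of them lower and 1 higher.

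MYC counts went the opposite way to most called members at days 6 and 9 and in the parental line, but not in every comparison. They were 1190.2, 1197.1 and 995.4 CPM with doxycycline, 962.9, 862.5 and 904.1 CPM at day 3, 1571.9, 1793.3 and 1795.3 CPM at day 6 and 773.6, 733.2 and 644.6 CPM at day 9 of the deleted line. MYC rose at day 6 (log2 fold change 0.61 ± 0.11 SE with adjusted p = 0.00037), when 20 members fell, and fell at day 9 (log2 fold change −0.65 ± 0.11 SE with adjusted p = 5.8e-05), when 37 rose; day 3 did not pass (log2 fold change −0.31 ± 0.11 SE with adjusted p = 0.06). In parental libraries it stood at 1306.3, 1425.2 and 1870.2 CPM without and 1065.7, 1076.9 and 1023.8 CPM with doxycycline (log2 fold change 0.54 ± 0.11 SE with adjusted p = 0.00056), with no overlap. Between the deleted and the parental line with doxycycline MYC did not pass (log2 fold change 0.10 ± 0.11 SE with adjusted p = 0.59), while 23 members were lower, nor did its day 6 difference between lines (0.07, adjusted p = 0.81), where 9 members passed. These are RNA levels, and the part of MYC in the members' change was not tested.

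A wider list of 98 further genes of the pathway, all of them tested, moved in the same directions with a smaller median. Like the members, it was chosen with earlier results of these data known and is no independent check. It gave 20 risen and 1 fallen at day 3, 39 fallen and 0 risen at day 6, 62 risen and 5 fallen at day 9, and 70 fallen and 1 risen in parental cells lacking doxycycline. Its median log2 fold changes were 0.12, −0.20, 0.33 and −0.34. At day 9, where 22.6% of all genes were higher and 23.8% lower, the small-subunit genes of that list gave 26 risen and 0 fallen of 36, and the large-subunit genes 27 risen and 1 fallen of 39. The 11 genes for RNA polymerase I transcription gave 3 risen and 3 fallen, close to the shares of all genes. Those 3 that fell at day 9, named after their values were seen, were TAF1D (log2 fold change −0.83 ± 0.14 SE with adjusted p = 8.3e-05) and TAF1B (log2 fold change −0.25 ± 0.08 SE with adjusted p = 0.016), of the promoter selectivity factor SL1, and POLR1D (log2 fold change −0.30 ± 0.06 SE with adjusted p = 0.00045), a subunit shared with RNA polymerase III. The other two were NAF1 (−0.16), an assembly factor of box H/ACA particles, and NMD3 (−0.27), the export adaptor of the large subunit. RSL24D1, of large-subunit assembly, was both the 1 gene that fell at day 3 (−0.31) and the 1 that rose in the parental line without doxycycline (0.36).

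DHX37, a helicase of the small-subunit processome, rose most of that list at day 9, with 73.0, 61.8 and 94.3 CPM, against 27.5, 29 and 32.2 CPM with doxycycline (log2 fold change 1.37 ± 0.13 SE with adjusted p = 1.5e-07). POLR1G, a subunit of RNA polymerase I, had 50.4, 51.8 and 61.7 CPM with doxycycline, 43.3, 24.8 and 35.9 CPM at day 6 and 116.7, 110.9 and 125.3 CPM at day 9, and passed in both directions (log2 fold change −0.66 ± 0.13 SE with adjusted p = 0.0011 at day 6; log2 fold change 1.11 ± 0.13 SE with adjusted p = 1.8e-06 at day 9). FTSJ3 and EBNA1BP2, of large-subunit assembly, rose at day 9 (log2 fold changes 0.99 and 0.78) and fell at day 6 (−0.59 and −0.61). NOP10, of the box H/ACA particles, fell at day 6 (log2 fold change −0.70 ± 0.08 SE with adjusted p = 6.6e-06) and stood at 65.5, 65.1 and 79.8 CPM at day 9, among the doxycycline libraries. UTP3 fell at day 6 (−0.57) and rose at day 9 (0.35), and TCOF1, a nucleolar factor of ribosomal DNA transcription, rose at day 9 (0.55).

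Several members also carry snoRNA genes in their introns. By the annotation deposited with the counts, 8 of 45 members (17.8%) hold at least 1 snoRNA gene on their own strand, against 240 of the 21382 tested genes that are not themselves listed as SNORA or SNORD genes (1.12%). They are NOP56, NOP58, DKC1, WDR43, TSR1, PPAN, GNL3 and NCL. NOP56 and GNL3 hold 5 each. Exons of 10 members (22.2%) overlap a gene on the opposite strand, and their counts carry that uncertainty. These are NHP2, HEATR1 (2095 bases of 8459), TSR1 (1146 of 4245), POLR1B, POLR1C, NOP14, NOC2L, NOC3L, GNL3 and IPO4. The precursor of ribosomal RNA itself rests on few counts. The 5 annotated loci together held 375 to 799 counts with doxycycline, 446 to 1858 at day 3, 243 to 481 at day 6 and 210 to 746 at day 9, with overlap at each day. Parental libraries held 20 to 463 counts without and 557 to 1603 with doxycycline, with no overlap. No test was made on these sums, which are a minute part of each library.

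Some markers of other cell types passed too, but few were tested and many genes of any kind passed. Of all tested genes, 22.6% were higher and 23.8% lower at day 9. At day 6, 28.1% passed in either direction, and between day 9 and day 6, 58.8% did. The epithelial and mesenchymal calls at day 9 lay close to the shares of all genes. Whether any marker set exceeded those shares was not tested. The 10 haematopoietic markers summed to 9.4 to 13.5 CPM at day 9, against 5.53 to 6.81 CPM with doxycycline, nearly all of it TAL1, and all 3 that were tested rose. The 8 epithelial markers summed to 60.5 to 69.5 CPM at day 9, against 38.8 to 43.0 CPM with doxycycline, mostly KRT18, but of the 5 tested 1 rose and 1 fell (median log2 fold change −0.15). At day 6 the epithelial sum was 45.4 to 60.1 CPM and 3 of 5 rose, and between day 9 and day 6, 1 rose and 4 fell. The 10 mesenchymal markers, chiefly VIM, summed to 823.5 to 1065.2 CPM at day 9, against 663.2 to 737.6 CPM with doxycycline, and of the 7 tested 2 rose and 2 fell. At day 6 they summed to 673.7 to 693.0 CPM, and 3 rose and 1 fell. In the parental line they summed to 449.6 to 495.1 CPM without and 526.8 to 535.6 CPM with doxycycline. The part of these markers in the members' change was not tested.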

How the data were processed

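RNA of 18 HAP1 libraries was sequenced as 151-bp pairs, per the labels' protocols. The values deposited by the authors are raw counts of reads per gene, with no normalization. The submitters' processing notes list DESeq2, featureCounts, Subread, SAMtools, HISAT2 and cutadapt 2.3, with genome GRCh38. No source used here gives the annotation release or the strand setting of the counting (the column names carry the letters RF without explanation). Lines split inside 16 genes were rejoined, and 6 libraries present in 2 files had identical counts and were used once. Replicates differed beyond sampling noise (chi-square per gene 4.97 to 95.0).

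Counts were filtered with filterByExpr, scaled with TMM and fitted with the quasi-likelihood test of edgeR 4.0.16 (R 4.3.3), with 1 mean per group over all 18 libraries and Benjamini-Hochberg adjustment over 21615 genes in each of 8 comparisons. The step was tried on simulated counts, for the day 9 comparison alone and with the same spread in every gene and group. Replicates of these data differed more unevenly, so that trial does not vouch for the 8 comparisons. CPM use TMM-scaled totals, and an SE belongs to the fold change it follows. No label calls the replicates separate cultures: p-values then reflect the spread of these samples alone, possibly a technical one. Alternatives used DESeq2 1.42.0, library size alone, no filter, only the groups compared, a replicate block, removal of span, length and GC trends, and leaving out each library.

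The members, role classes and the wider list were chosen with earlier results of these data known. Values in every library are given for the members of each class with the largest passing changes at day 9 and day 6, and for members that passed against the majority.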

Additional observations from a re-analysis of the deposited data

Results flagged for a closer look

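The effect of being without doxycycline differed between the deleted and the parental line by a test of the difference itself. For the change at day 9 of the deleted line minus that of the parental line, 43 of 45 members passed, all of them with a positive difference. Among RNA polymerase I genes the difference of log2 fold changes was 1.19 for POLR1C, 1.39 for POLR1A and 0.63 for RRN3. Among snoRNP genes it was 1.47 for NOP56, 0.85 for NOP58 and 0.53 for NHP2. Small-subunit factors gave 1.83 for RRP12, 1.76 for NOL6, 1.87 for RRP9 and 1.64 for UTP20. Large-subunit factors gave 2.0 for PPAN, 1.60 for NOP2, 2.02 for RRS1 and 1.25 for NOP16. IPO4 stood at 2.27 and LYAR at 0.90. For the day 6 change 9 members passed, all positive, among them POLR1A at 0.51, RRP9 at 0.64 and RRN3 at 0.48. Leaving out single libraries, the call of POLR1A was lost in 7 of 12 fits (adjusted p 0.068 to 0.076) and that of RRP9 in 8 (0.057 to 0.098), while that of RRN3 was lost in 0. How long the parental cells had been without the drug is not stated in the labels. SARS2 counts of the deleted line were not lower in the libraries labelled as lacking doxycycline. What the difference between lines stands for was not tested.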

How the results depend on the processing

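The counts of members called at day 9 against doxycycline, day 9 against day 6, parental cells without against with doxycycline, and the day 9 difference between lines stayed within 1.5 times their value under every alternative tried. Their ranges over single libraries left out were 30 to 42, 37 to 44, 38 to 41 and 42 to 44. The other 4 depended on the setting or on single libraries. The day 3 count of 16 was 27 without the filter and 36 with only the groups compared in the fit, and 6 to 16 with a library left out. The day 6 count of 21 was 11 to 27 with a library left out. The line comparison with doxycycline (23) was 39 with only the groups compared and 6 to 25 with a library left out. The day 6 difference between lines (9) was 19 with DESeq2, 18 with library size alone, 24 without the filter, 23 with only the groups compared and 3 to 20 with a library left out. At least 1 single-library omission ended the call of 11 of 16 members at day 3, 10 of 21 at day 6, 17 of 23 between lines with doxycycline and 6 of 9 for the day 6 difference. For day 9, day 9 against day 6, the parental line and the day 9 difference it was 8 of 38, 7 of 43, 3 of 41 and 1 of 43. Where a library is left out, the remaining pair is assumed to vary like the other groups. For all 8 comparisons each of these settings left the median of the members on the same side of 0.

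DDX10 was the 1 member with a passing value whose sign turned, and none of the turned values passed: between day 9 and day 6 it was 0.18 with span and length trends removed, 0.17 with GC removed too (an alternative chosen after seeing the data) and 0.16 with the block and trends together, and at day 9 against doxycycline 0.04 with GC removed. The cause was not tested. Library size alone put the median of all genes at −0.15 between day 9 and day 6, against −0.02 with TMM, and 36 members still rose.

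The replicate numbers did not pair the libraries: same-numbered deviations correlated at −0.08 to 0.07, and 4 of 18 libraries correlated best with their own number. A replicate block gave 19 members at day 3, 22 at day 6, 39 at day 9, 43 between day 9 and day 6, 41 in the parental line, 26 between lines with doxycycline, 18 for the day 6 difference and 43 for the day 9 difference. Each member held at least 343 counts in every library, and precision is limited by having 3 libraries per group.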
